A study of Mus musculus with 2 samples.

Results

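The genes described here carry calcium and magnesium across the epithelium of the distal nephron: the entry channels Trpv5, Trpv6 and Trpm6, the calcium-binding proteins Calb1, S100g and Pvalb, the export proteins Slc8a1, Atp2b1 and Atp2b4, and the vitamin D receptor Vdr. They were named for their roles, with earlier results of these data already known. Of these 10 genes, 9 had at least 1 probe by gene name, 19 probes in all, among the 41174 probes of the array, and all 9 were measured, out of 18974 genes measured in the series. Atp2b4 had 0 probes by gene name, older name or RefSeq accession and was not analysed here.

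In the distal convoluted and connecting tubule, calcium enters cells through TRPV channels in the luminal membrane, is bound and carried by calbindins, and leaves on the blood side through a sodium-calcium exchanger and calcium pumps. The vitamin D receptor is a nuclear receptor for the active hormone that raises transcription of several genes of this route. Magnesium enters the distal convoluted tubule through Trpm6. Collecting duct principal cells, which reabsorb water and sodium, express some of the same genes, and Gata2 encodes a zinc finger transcription factor that binds GATA motifs in DNA.

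RNA was compared between wild-type (WT) mice, whose label gives no transgene, and mice of the genotype Gata2flox/-::Pax8-rtTA::Tet-Cre (Gata2 CKO). All were 8 weeks old and of mixed gender by the labels, and the labels of both groups give the same protocol, in which doxycycline was fed from 4 weeks of age over another 4 weeks, which induces the deletion in CKO mice. Pax8-rtTA acts along the renal tubules and not only in the collecting duct, and CKO cells outside the tubules also lack 1 of their Gata2 alleles. Collecting duct cells were bound with Dolichos biflorus agglutinin, a lectin, on magnetic beads, and the labelling reaction started from 50 ng of total RNA. Each genotype has 1 one-colour array, and the design text gives 3 mice per genotype. The arrays were named as mixtures, but no label says whether the 3 mice were combined. Differences therefore have no replicate check and no test between genotypes was possible. A fixed size of 2-fold was used to count genes.

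The WT array had a 75th percentile of the processed signal of 314, and the CKO array had 250.03. Every difference is the CKO minus the WT value of log2 signal after each array was set to its own 75th percentile. Its ± is the error that the scanner software gives for the spots, not a spread between mice. For bright probes this error is close to a fixed share of the signal, ± 0.20 for Calb1, S100g and Trpv6 alike. A difference past it therefore reflects size and is not a check against measured noise. Differences of repeated spots had a median SD of 0.20 in the dimmest of 4 brightness groups and 0.03 in the brightest. A probe was called measured where its signal was well above background, of which the lowest was 12.0 for WT and 11.6 for CKO. Spike-in control RNA gave another scale: with it all differences were lower by 0.54 and the median over all genes went from 0.04 to −0.50, so that any positive difference under 0.54 changes sign on that scale. Gata2 itself was lower by both of its probes, by −0.32 and −0.37 (each ± 0.20), or at 80.4% and 77.3% of the scaled WT signal. Which exons were deleted was not analysed here, and probes outside them would be no check of the deletion.

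The cells that such a preparation can hold were read from lists of marker genes before the calcium genes were compared. All 10 principal cell markers were measured on both arrays, with summed signals of 306720 (WT) and 209846 (CKO), a scaled ratio of 0.860 and a median difference of −0.21. Of them 7 were lower, among them the brightest, Fxyd4 (−0.09) and Aqp3 (−0.43), and 3 had positive differences, which ran up to 0.62. All 10 intercalated cell markers were higher on the CKO array, with a median of 0.77 and a scaled ratio of their sums of 1.74, although Atp6v0d2 at 0.53 would lie just below 0 with spike-in scaling. For the distal convoluted tubule 9 of 9 markers were measured, with summed signals of 13302 and 10356, a scaled ratio of 0.979 and a median of 0.09, which is below 0 with spike-in scaling. Of these markers 5 were higher and 4 lower, from −0.78 for Slc12a3 to 0.57 for Emx1. Their sums rest mostly on Stk39 and Ppp1r1a (WT signals of 4446 and 3489), so the ratio does not measure the amount of these cells. Of 8 connecting tubule markers 7 were measured, with a median of −0.28, and the ratio of their sums of 1.38 rested on Klk1 (1.51). Scnn1b, Scnn1g and Hsd11b2, at −0.18, −0.50 and −0.61, are in both this list and the principal cell list. The medians of these lists are therefore not separate readings. Kcnma1 was not well above background on either array. All 9 macrophage markers were lower on the CKO array, with summed signals of 33058 and 12882, a ratio of 0.490 and a median of −0.80 (Lyz2 −1.25, Tyrobp −0.71). In RNA from a mixture of cells, fewer cells of a type and less RNA per cell cannot be told apart, and the part of these markers in the differences below was not tested.

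**Figure D1:**
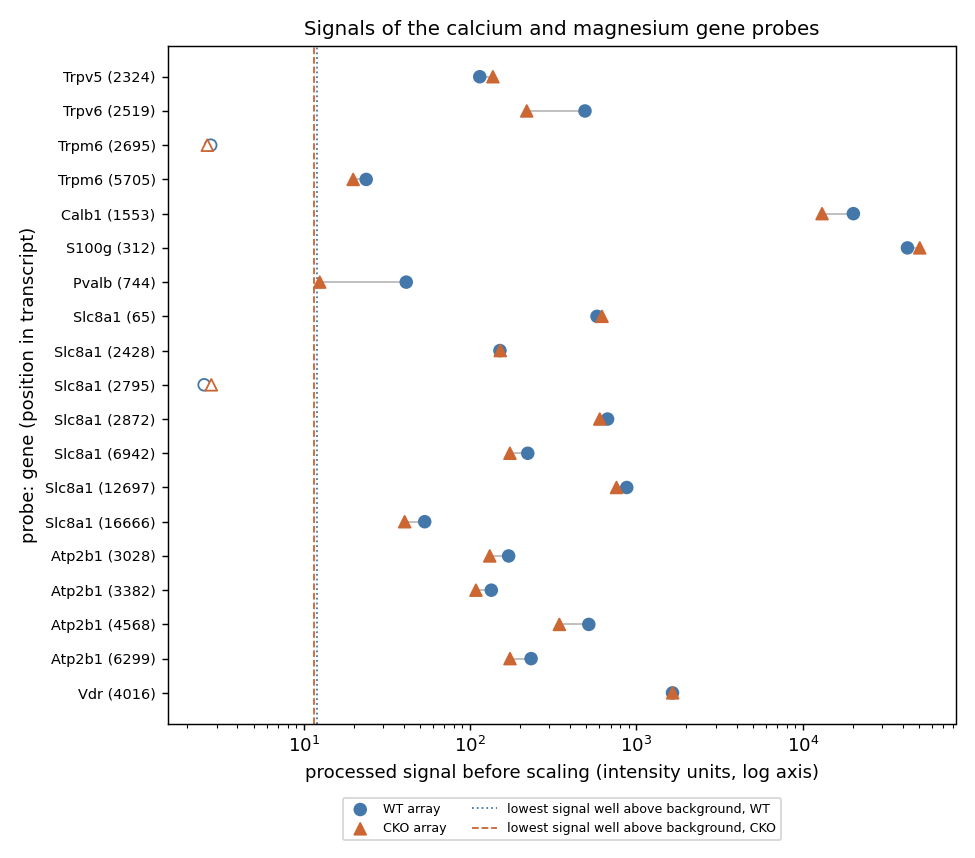
Processed signal of each of the 19 probes on the WT array (circles) and the CKO array (triangles), before scaling, on a log axis, with the position of the probe in its own transcript record in brackets; open symbols were not well above background and vertical lines give the lowest signal that was. The signals of S100g and Calb1 lie above those of the other probes on both arrays, and Pvalb on the CKO array lies next to the background line. The levels of different probes cannot be compared with each other.

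The entry channels of calcium differed in opposite directions. Trpv6, the epithelial calcium channel best known from the intestine, was lower on the CKO array, and Trpv5, the calcium channel of the distal convoluted and connecting tubule, was higher. The probes of both genes lie on the minus strand of chromosome 6 in the files' build mm9, Trpv6 at chr6:41570967-41571026 and Trpv5 at chr6:41602985-41603044. Because these genes are close relatives, the first 30 of the 60 bases of each probe are shown.
Trpv6 probe: gacagctaaggtcatcctgcgagtccaagg
Trpv5 probe: gaagagagctgctttgcaagagtttgaatt
The whole probes shared a run of at most 6 bases and had the same base at 14 of 60 positions. The longest run that either probe shared with a probe of any other gene was 14 bases. Whether the probes lie in coding exons or untranslated regions was not analysed here.

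Trpv6 had a signal of 491 in WT and 219 in CKO cells. Its difference was −0.83 ± 0.20, so that the scaled CKO signal was 56.1% of that of WT, or 1.78-fold lower. The difference did not reach 2-fold, and 3.91% of all genes measured had a value as low or lower. Trpv6 was lower under all 9 alternative ways of processing, from −1.38 with spike-in scaling, which passes 2-fold, to −0.73 with another background correction.

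Trpv5 had a signal of 114 in WT and 137 in CKO cells. Its difference was 0.59 ± 0.21, or 1.51-fold higher, which 6.58% of all genes reached or exceeded. It stayed above 0 under all 9 alternatives, but at only 0.05 with spike-in scaling. The ratio of Trpv6 to Trpv5 signal on the CKO array was 0.372 times that on the WT array, a log2 change of −1.43 ± 0.29, and a factor common to an array cancels in this ratio. With 1 probe per gene and 1 array per genotype, it describes an unequal difference of these 2 probes, already seen in their opposite directions. It does not show that either channel was the same in both genotypes.

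The promoters of the 2 channel genes are shown because the deleted factor binds GATA motifs, as the 250 bases before the first base of the transcript in RefSeq on GRCm38, a build other than that of the probes. Capitals mark a GATA motif, searched on both strands as the letters GATA with A or T just before and A or G just after.
Trpv6 promoter, chr6:41636406-41636655, minus strand: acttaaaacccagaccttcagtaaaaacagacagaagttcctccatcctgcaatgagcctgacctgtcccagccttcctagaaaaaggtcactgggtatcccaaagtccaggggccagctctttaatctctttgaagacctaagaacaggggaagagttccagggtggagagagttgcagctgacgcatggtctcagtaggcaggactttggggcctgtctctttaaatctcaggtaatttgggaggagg
Trpv5 promoter, chr6:41680724-41680973, minus strand: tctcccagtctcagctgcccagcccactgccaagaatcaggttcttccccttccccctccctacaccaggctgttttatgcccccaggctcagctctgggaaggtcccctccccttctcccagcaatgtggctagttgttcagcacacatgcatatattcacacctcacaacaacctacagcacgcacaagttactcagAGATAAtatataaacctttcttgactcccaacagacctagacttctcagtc
The Trpv5 window held 1 match, beginning 51 bases before the start, and the Trpv6 window held 0. Over the 9 genes of the group with a promoter available, 3 of 11 promoters (27.3%) held a match, against 26.5% of all 32851 promoters. These 9 are not the 9 measured genes: Atp2b4 is among them, and Calb1 had no promoter available and was not searched. The other matches were in Slc8a1, which had 3, beginning 177, 141 and 68 bases before the start, and in Atp2b4, which had 1 at 206 bases. The share in the group is near that of all promoters, and a match describes the letters only, not a bound site.

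Trpm6, the channel through which magnesium enters the distal convoluted tubule, was dim. Its measured probe at chr19:18952126-18952185 (mm9, plus strand) had signals of 23.8 (WT) and 19.8 (CKO). The difference of 0.07 ± 0.36 was smaller than its error, and it was −0.05 with cyclic loess normalization and −0.47 with spike-in scaling. A second probe, made from another transcript, had signals of 2.76 and 2.63 and was not well above background on either array.

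**Figure D2:**
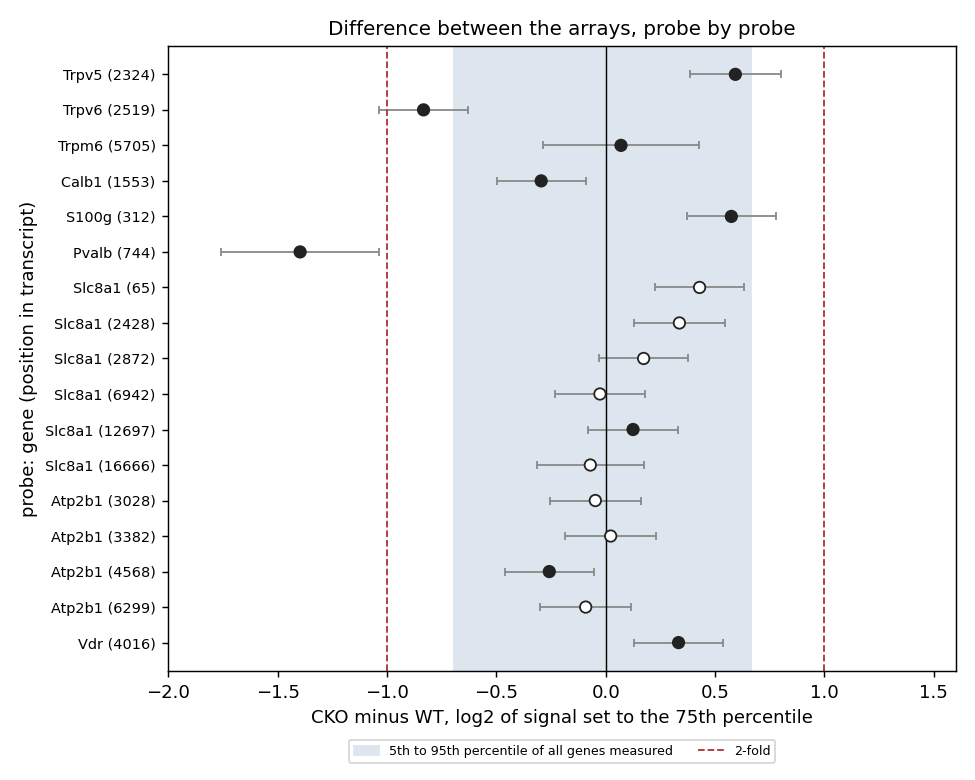
CKO minus WT difference in log2 signal for the 17 probes measured on both arrays; bars are the spot errors, filled points are the probe that gives the gene its value, the shaded band spans the 5th to the 95th percentile of all genes measured (−0.70 to 0.66) and dashed lines mark 2-fold. Trpv6 and Pvalb lie left of the band, and Trpv5 and S100g lie near its right edge.

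Among the calcium-binding proteins, the 2 calbindins differed in opposite directions on the 75th percentile scale. S100g, the small vitamin D-dependent calbindin, was higher on the CKO array, and Calb1, the large calbindin of the distal convoluted and connecting tubule, was lower. Pvalb, parvalbumin, which marks the early distal convoluted tubule and is also abundant in fast muscle fibres, showed the lowest value of the group.

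S100g, probed at chrX:159400032-159400091 (mm9, minus strand), had a signal of 42617 in WT and 50498 in CKO cells, which is higher even before scaling. Its difference was 0.57 ± 0.20, or 1.49-fold higher, and 7.04% of all genes reached or exceeded it. It was positive under all 9 alternatives, at 0.40 with quantile normalization and 0.03 with spike-in scaling.

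Calb1 was printed on 10 spots of each array, at chr4:15832543-15832602 (mm9, plus strand), so its difference was measured with more spots than any other of the group. The 8 spots without an outlier flag had signals of 19322 to 21127 with a median of 20188 on the WT array. On the CKO array they had 12524 to 13832 with a median of 13094, so the spots of the arrays did not overlap. Spot by spot, the difference had a mean of −0.29 with an SD of 0.0081 and a range of −0.30 to −0.28, and the 2 flagged spots gave −0.34 and −0.39. The scaled CKO signal was thus 81.5% of that of WT, with a spot error of ± 0.20 from the scanner software. These are repeated spots of the same labelled RNA, so their narrow range says nothing about the spread between mice. Calb1 was lower under all 9 alternatives, from −0.84 with spike-in scaling to −0.29. The ratio of S100g to Calb1 signal was 1.83 times as high on the CKO array, a log2 change of 0.87 ± 0.29.

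Pvalb was the only 1 of the 9 measured genes (11.1%) at least 2-fold apart, where 4.32% of all genes measured were, 1.49% in the higher and 2.84% in the lower direction. With 1 gene past the fold, this share is no result about the group. The probe at chr15:78021647-78021706 (mm9, minus strand) had a signal of 41.4 in WT and 12.5 in CKO cells, the latter 1.08 times the lowest signal well above background. The difference was −1.40 ± 0.36, or 2.63-fold lower, and 1.57% of all genes were as low or lower. It was −1.94 with spike-in scaling and only −0.20 with normexp background correction, which adds 50 to every signal, more than either signal of Pvalb. Of the cells that express it, the distal convoluted tubule had the marker values given above, 5 higher and 4 lower with a median of 0.09. Among these 9 markers the cotransporter gene Slc12a3, singled out after its value was seen, was the lowest at −0.78, with signals of 1017 and 470.2. The highest was Emx1 at 0.57. Skeletal muscle markers were near background, with 7 of 10 measured, 3 with a positive and 4 with a negative difference, and summed signals of 252 and 261. The brightest were Mylpf at −0.03 and Actn3 at 1.28. Myh4 (signals of 24.4 and 2.35) and Acta1 (18.3 and 9.52), named after their values were seen, were measured on the WT array only. Set against the lowest signal well above background, they were 1.68-fold and 1.26-fold higher there, with no allowance for spot error. These bounds, −0.75 and −0.33, are smaller than their spot errors of 1.45 and 0.46, so neither is a firm minimum. Ckm, Tnnt3 and Pygm were not well above background on either array, and the part of either tissue in the Pvalb value was not tested.

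Neither measured export gene reached 2-fold. Slc8a1, the sodium-calcium exchanger of the blood-side membrane, had 7 probes, of which 6 were measured on both arrays. The brightest, placed on chromosome 17, had signals of 875 (WT) and 759 (CKO) and gave the gene a difference of 0.13 ± 0.20, or −0.42 with spike-in scaling. The probes were designed on several transcript records, and a position counts within a probe's own record, so these numbers give no order along the gene. The probes at positions 65, 2428 and 2872 gave 0.43, 0.34 and 0.17. Those at 6942, 12697 and 16666 gave −0.03, 0.13 and −0.07. Their mean was 0.16 with an SD of 0.20 between probes, against a root mean square SD of 0.27 over the 5309 genes with several measured probes. Only the probes at 65 and 2428 exceeded their spot errors, and the signs of 0.43, 0.34, 0.17 and 0.13 turn with spike-in scaling. The −0.07 turned positive under 1 of 6 alternatives. The probe at 65 has no position in the genome in the file, and for 12697 and 16666 the file places only 19 and 9 of the 60 bases. The 7th probe, at 2795, had signals of 2.52 and 2.78 and was not well above background on either array.

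Atp2b1, the calcium pump found in most cell membranes, had 4 probes on chromosome 10, all measured on both arrays. The brightest, at chr10:98486216-98486275 (mm9, plus strand), had signals of 518 (WT) and 344 (CKO) and a difference of −0.26 ± 0.20, or 83.6% of WT. The other 3, at positions 3028, 3382 and 6299 of their own transcript records, gave −0.05, 0.02 and −0.09, each within its spot error of ± 0.21, and the 0.02 turned negative under 4 of 6 alternatives. The mean of the 4 was −0.09 with an SD of 0.12 between probes, so the value of Atp2b1 depends on the probe taken. The ratio of Slc8a1 to Atp2b1 at their brightest probes changed by 0.38 ± 0.29.

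Vdr, the vitamin D receptor, had almost equal signals of 1649 and 1652 at chr15:97685136-97685195 (mm9, minus strand). Because the CKO array was dimmer as a whole, its scaled difference was 0.33 ± 0.20, or 1.26-fold higher, and it was −0.21 with spike-in scaling. Of all genes measured, 16.8% had a difference as high or higher. The receptor and its target genes in the group thus gave no single direction: Vdr, Trpv5 and S100g were positive and Trpv6 and Calb1 negative, with the sign of Vdr turned by spike-in scaling.

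Over the 9 genes measured, 5 had a positive and 4 a negative difference, with a median of 0.07. Over all 18974 genes, 57.1% were positive and the median was 0.04, so the group as a whole lay close to the middle of the array while its members spread from −1.40 to 0.59. By probe, 9 of the 17 measured were positive and 8 negative. Of the 17, 9 exceeded their spot error, which for bright probes amounts to a fixed cutoff near 0.20. Set against the median of all genes under each way of processing, Trpv6 lay between −0.98 and −0.80, Trpv5 between 0.35 and 0.55, S100g between 0.38 and 0.53 and Calb1 between −0.44 and −0.33. These 4 genes therefore kept their side of the median of all genes under all 9 alternatives, and so did Atp2b1, Vdr and Pvalb. Trpm6 and Slc8a1 did not. Trpv6, Trpv5, S100g, Calb1, Vdr and Pvalb have 1 probe each, so the other filters and the mean of probes could not change their own values. Median and spike-in scaling move all differences by the same amount, which nearly cancels against the median of all genes. For these genes the count of 9 therefore includes alternatives that could hardly change the side.

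**Figure D3:**
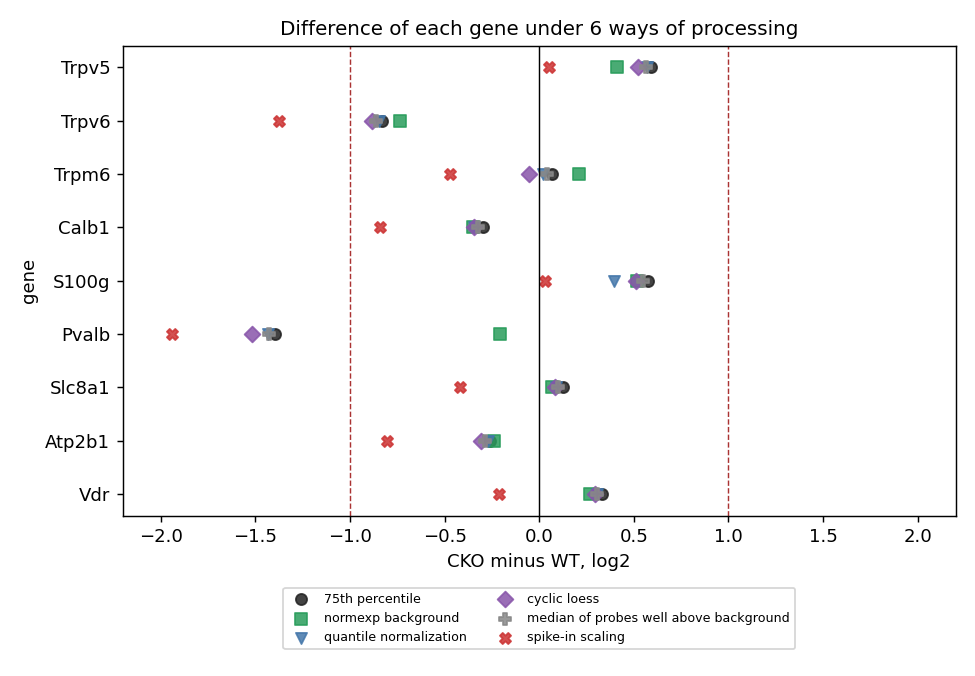
Difference of each of the 9 genes under 6 ways of processing, as CKO minus WT in log2; dashed lines mark 2-fold. Spike-in scaling moves every gene left by 0.54, normexp brings Pvalb from −1.40 to −0.20, and the other ways lie close together.

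The other genes of calcium and magnesium handling were read from 4 lists with 77 genes in all. Among regulators and hormone signalling, 20 of 22 genes were measured, 11 with a positive and 9 with a negative difference and a median of 0.03 (−0.52 with spike-in scaling). The 2 stanniocalcins, secreted glycoproteins first known as calcium-lowering hormones of fish, were both lower on the CKO array. Stc1 had signals of 816 and 194 and a difference of −1.74, with its 3 probes between −1.74 and −1.49. Stc2 had signals of 231 and 48.1 and a difference of −1.93. Klk1, tissue kallikrein, a connecting tubule protease, was higher, with signals of 39707 and 89899 and a difference of 1.51. It belongs to a family of near-identical genes, so its probe may also report relatives and the value is uncertain. Of the 20 genes, 1 thus passed 2-fold in the higher and 2 in the lower direction, beside 1.49% and 2.84% of all genes. These counts change with spike-in scaling, where Klk1 falls below 2-fold and Sgk1 and Slc9a3r2 pass it in the lower direction. On that scale 59 of all 18974 genes were at least 2-fold higher and 1635 lower. Sgk1, a kinase induced by aldosterone and glucocorticoids, had signals of 13236 and 5338 and a difference of −0.98.

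The hormone inputs to calcium transport are given for their roles, chosen after their values were seen. The calcium-sensing receptor Casr was dim, with signals of 46.8 and 68.5, and had a difference of 0.88 ± 0.22. The parathyroid hormone receptor Pth1r had −0.05, the co-receptor gene Kl had −0.04 at its brighter probe and 0.68 at the other, and Cyp27b1, which makes the active vitamin D hormone, had 0.24. Cyp24a1, which breaks that hormone down and is itself a target of the receptor, was measured on the WT array only, with signals of 16.9 and 9.98. Set against the lowest signal well above background, Cyp24a1 was 1.17-fold higher on the WT array. This bound of −0.22 is smaller than its spot error of 0.46, so it is not a firm minimum.

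Among other calcium pumps, exchangers and store channels, 16 of 18 genes were measured, with 10 positive and 6 negative differences. That 0 of them were 2-fold apart is near the background of 4.32% of all genes, and 57.1% of all genes were positive. The median was 0.16, and −0.38 with spike-in scaling, which also takes Atp2b2 and Orai2 past 2-fold in the lower direction. The brightest were the inositol trisphosphate receptors, which release calcium from stores: Itpr2 had 0.18, Itpr1 −0.16 and Itpr3 0.23. Atp2b2, another plasma membrane calcium pump, had signals of 1139 and 607 and a difference of −0.58, the lowest of this list.

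Among other EF-hand proteins, which bind calcium by the same fold as the calbindins and parvalbumin, 11 of 13 were measured, 5 with a positive and 6 with a negative difference. The median was −0.10, and −0.64 with spike-in scaling. S100a14 had signals of 864 and 120 and a difference of −2.52. Calml4, a calmodulin-like protein, had signals of 201 and 47.7 and a difference of −1.75. S100a6 was higher on the CKO array, with signals of 2469 and 4212 and a difference of 1.10. Calm2, one of the genes for calmodulin, had a difference of 0.20 at the brighter of its probes. Calb2 and Ocm were not well above background on either array. Thus 1 of the 11 was at least 2-fold higher and 2 were at least 2-fold lower, beside 1.49% and 2.84% of all genes. With spike-in scaling S100a6 falls below 2-fold.

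Among genes of magnesium transport and its regulators, all 24 were measured and 0 were 2-fold apart, again near the background of 4.32%. Of these, 15 had a positive and 9 a negative difference, where 57.1% of all genes were positive, and the median was 0.18 (−0.36 with spike-in scaling). Fxyd2, the gamma subunit of the sodium pump, had signals of 7070 and 9517 and a difference of 0.76. Pcbd1, an enzyme that recycles a cofactor of amino acid hydroxylases, had signals of 6096 and 7255 and a difference of 0.58. Kcnj16 and Kcnj10, which form a potassium channel of the blood-side membrane, had −0.04 and −0.45. Cldn16, a tight junction protein of the thick ascending limb through which magnesium passes between cells, had signals of 61.9 and 97.4 and a difference of 0.98. Beside it, 7 of 8 thick ascending limb markers, of which Cldn16 and Cldn19 are also members of the magnesium list, had a median of 0.59. The scaled ratio of their sums was 1.18. Cldn16, Cldn19, Ppp1r1b and Kng2 were dim, with WT signals of 61.9, 47.7, 29.0 and 22.9. Umod had 0.39, and Slc12a1 had −0.09 at its brighter probe and 0.47 at the other. Tmem207 was not well above background on either array, and the part of such cells in the magnesium list was not tested. Cnnm2 and Trpm7, both widely expressed magnesium transport genes, had 0.13 and −0.08. Cldn16, Cnnm2 and Trpm7 were named for their roles after their values were seen.

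**Figure D4:**
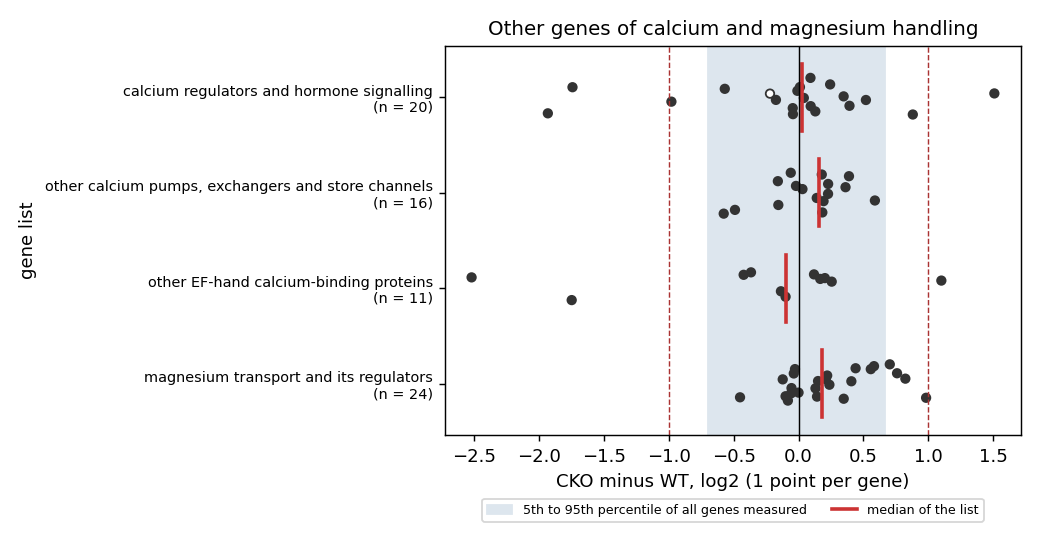
CKO minus WT difference in log2 of the measured genes of 4 lists of calcium and magnesium handling, 1 point a gene; the open point is a bound, red lines are medians, the band spans the 5th to the 95th percentile of all genes and dashed lines mark 2-fold. The medians lie between −0.10 and 0.18, and 6 genes lie past 2-fold, S100a14, Stc2, Calml4 and Stc1 on the lower side and Klk1 and S100a6 on the higher.

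Markers of the remaining cell types were read in the same way. Proximal tubule markers had a median of −0.21 and a scaled ratio of sums of 0.905, with Slc22a12 at 0.33 and Lrp2 at −1.58, whose 4 probes ran from −1.58 to −0.26. Markers of smooth muscle, pericytes and fibroblasts had 8 of 10 measured, a median of −0.69 and a ratio of 0.820, with Acta2 at 0.05 and Tagln at −0.79. The 4 probes of Acta2 ran from −1.16 to 0.05 and the 2 of Tagln from −1.83 to −0.79, and Des and Pdgfra were not well above background on either array. Endothelial markers had 7 of 8 measured, summed signals of 360 and 195.0 and a median of −0.31, with Egfl7 at −0.30 and Emcn at −0.35, and Tie1 was not well above background on either array. The brightest markers of the lists named above were Stk39 (−0.04) and Ppp1r1a (−0.30) for the distal convoluted tubule, Kcnj1 (−0.48) beside Klk1 for the connecting tubule, and Slc26a4 (0.79) and Atp6v1g3 (0.66) for intercalated cells.

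**Figure D5:**
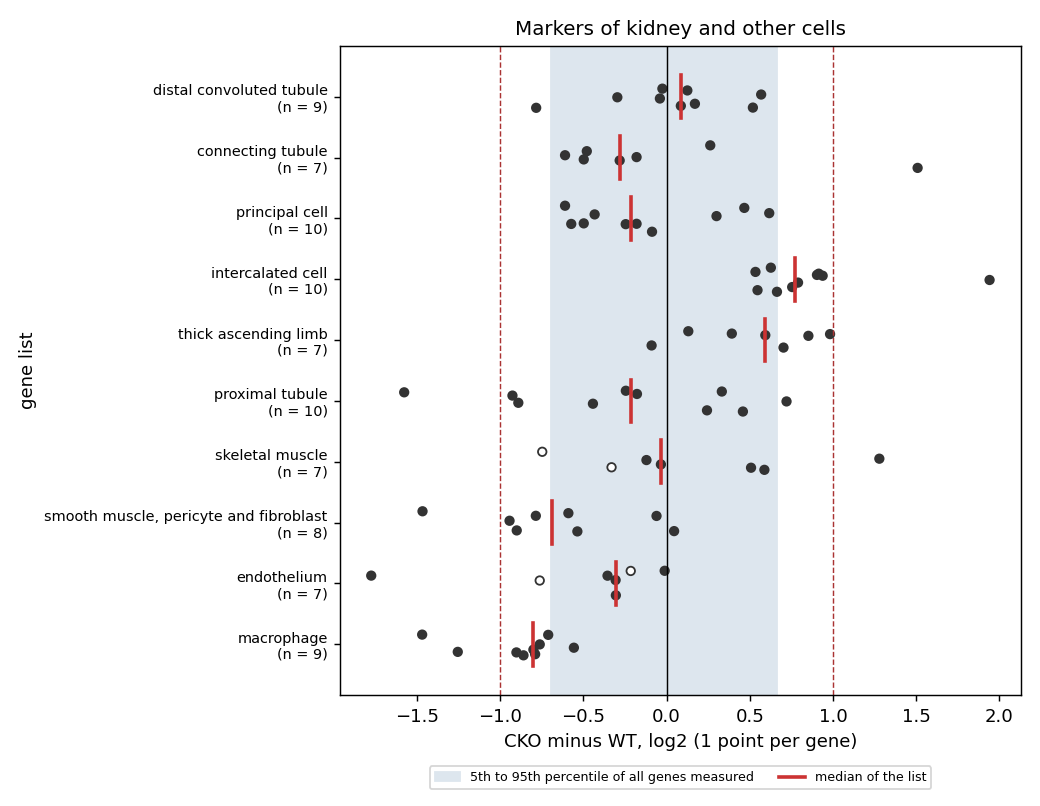
CKO minus WT difference in log2 of marker genes of 10 cell types, 1 point a gene measured; open points are bounds, red lines are medians, the band spans the 5th to the 95th percentile of all genes and dashed lines mark 2-fold. All intercalated cell markers lie right of 0 and all macrophage markers left of it, while distal convoluted tubule markers lie on both sides around a median of 0.09.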

How the data were processed

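Per the file headers, the deposited files hold the spot intensity of 1-colour arrays on a linear scale, read with Agilent Feature Extraction 10.7.3.1, with background subtracted, and probes placed on mm9. The authors' normalization between arrays is not given in the sources. The 2 arrays shared 1 slide and 1 scan.

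An array held 45018 spots, of which 43379 were not controls. Spots flagged as outliers (66 on the WT and 73 on the CKO array) were left out, and 0 were saturated. Log2 processed signal was set to the 75th percentile, and spots of 1 probe were averaged. For each gene the brightest probe by mean signal was taken, out of those well above background on either array. A probe measured on 1 array gives a bound. RefSeq updated the symbols of 2672 of 26876 matched probes.

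All members are named. Other lists name genes at least 2-fold apart (up to 5), then the brightest up to 4, and marker lists name the 2 brightest and those measured on neither array. Exceptions are marked. Members and lists were chosen with earlier results of these data known. No test was run, since 1 array a group allows none, and precision is limited by how few arrays there are. The scripts' steps were tested on simulated data. The 9 alternatives were normexp with an offset of 50, quantile, cyclic loess, median and spike-in scaling (8 transcripts), 2 other filters, the mean of probes, and flagged spots kept. Tools were R 4.3.3, limma 3.58.1, Python 3.11.15, numpy 2.4.6, pandas 2.3.3 and matplotlib 3.10.9.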

Additional observations from a re-analysis of the deposited data

How the results depend on the processing

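Of 129 member values by alternative, 111 kept their side of 2-fold and moved by less than the 0.27 by which probes of a gene differ (SD). With spike-in scaling 16 moved by more, all of them lower, and 1 passed 2-fold, and with normexp 1 no longer did. Many of the 111 could not move. The other filters left every member gene value as it was, and the mean of probes changed only Slc8a1 and Atp2b1. Keeping flagged spots changed values only slightly. The 111 is therefore not a count of independent checks. With spike-in scaling the median of the members was −0.47, 2 members (Trpv6 at −1.38 and Pvalb at −1.94) were 2-fold apart, and the list medians were −0.52 for regulators, −0.38 for pumps, exchangers and store channels, −0.64 for other EF-hand proteins and −0.36 for magnesium. With normexp 0 members were 2-fold apart, since Pvalb was at −0.20. The members' median was −0.05 with cyclic loess, and that of other EF-hand proteins was 0.12 without a filter on dim probes. Genes 2-fold higher and lower numbered 282 and 538, against 65 and 204 with normexp, 59 and 1635 with spike-in scaling and 1215 and 1241 without the filter. The cause of these shifts was not tested, other than that spike-in scaling adds the same amount to every difference and that normexp adds an offset of 50. No paired analysis was possible because each group has 1 array. Signal over background limits Trpm6 and Pvalb.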
